A study of Mus musculus with 12 samples.

Results

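*Hprt*, *G6pdx*, *Pdha1*, *Idh3g*, *Prps1*, *Gla*, *Lamp2* and *Phka2* are X-linked genes for enzymes and membrane proteins of metabolism, mitochondria and lysosome. They were chosen by name, as 8 of the 24627 genes counted in each library, 1071 of which are X-linked. All 8 reached 1 CPM (counts scaled to the size of the library) in at least 6 of the 12 libraries and entered the tests. RNA-seq of total RNA was available for *Xist*-TetOP lines, in which the endogenous *Xist* gene of J1 XY mouse ES cells is driven by a TetO promoter, so that doxycycline (DOX) turns on *Xist* on the only X chromosome of the cell. One line makes the full-length RNA (*Xist* FL), another lacks the A repeat (*Xist* ΔA), and in the last the repeats B and C are deleted (*Xist* ΔB+C). Each line is a single cell line, so that the effect of a deletion and the history of its line cannot be told apart. Cells of all groups were differentiated for 2 days by LIF withdrawal, in the absence of DOX (noDOX) or in 1.5 μg/ml of it, and each of the 6 groups held 2 replicates. The libraries summed to between 31337490 and 41240470 counts, and replicate 2 of the *Xist* ΔB+C DOX group came from 100 ng of RNA by a low-input method, against 1000 ng elsewhere.

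In X-chromosome inactivation, *Xist* RNA spreads over the chromosome that makes it and genes on that chromosome are silenced. The A repeat is the part of *Xist* required for silencing, and the B and C repeats are the part through which Polycomb complexes are recruited. In an XY cell a silenced metabolic gene has no second copy to make up for it, as in boys who carry defects of these genes. *Prps1* makes phosphoribosyl pyrophosphate, and *Hprt*, the gene of Lesch-Nyhan disease, uses it to recycle purine bases. *G6pdx* encodes glucose-6-phosphate dehydrogenase, which opens the oxidative branch of the pentose phosphate pathway and yields NADPH. *Pdha1* encodes the catalytic E1 alpha subunit of the pyruvate dehydrogenase complex, and *Idh3g* the gamma subunit of the NAD-dependent isocitrate dehydrogenase of the citric acid cycle. *Gla* encodes the lysosomal alpha-galactosidase lacking in Fabry disease, and *Lamp2* a protein of the lysosome membrane lacking in Danon disease. *Phka2* encodes the liver form of the alpha subunit of phosphorylase kinase, which switches on glycogen breakdown.

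The *Xist* count followed the label in every library. It was 2.48 and 3.0 CPM in FL noDOX and 869 and 908 CPM in FL DOX. In ΔA it went from 6.35 and 8.27 CPM to 722 and 570 CPM, and in ΔB+C from 2.54 and 2.49 CPM to 1791 and 1159 CPM. One ΔB+C noDOX library has DOX in its file name and was used as labelled, as noDOX. The share of X-linked counts lay between 2.67% and 2.93% in the 6 noDOX libraries, between 1.64% and 2.05% in the DOX libraries of FL and ΔB+C, and at 2.90% and 2.62% in ΔA DOX. These are bulk libraries of cultures in which only some cells have an *Xist*-coated X, so that fewer cells with an active gene and less RNA per cell cannot be told apart.

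The 8 genes lie in the mm10 (GRCm38) genome at 29.1 to 65.0 Mb from the start of *Xist*. *Idh3g* (chrX:73778963-73786897, minus strand) and *G6pdx* (chrX:74409483-74429194, minus strand) are neighbours on one side of *Xist*, with *Hprt* (chrX:52988137-53021659, plus strand) and *Lamp2* (chrX:38401357-38456454, minus strand) farther out. On the other side lie *Gla* (chrX:134588149-134601125, minus strand), *Prps1* (chrX:140456613-140476140, plus strand), *Pdha1* (chrX:160122209-160138413, minus strand) and *Phka2* (chrX:160502166-160598878, plus strand). In GENCODE vM21 all 8 are protein coding, with 7 to 35 merged exons. Exons of *Pdha1* overlap *Map3k15* on the other strand by 603 bases, those of *G6pdx* overlap *Ikbkg* by 418 bases, and those of *Phka2* overlap the antisense transcript *Gm15243* by 115 bases. The stated counting options set no strand and name no setting for reads that overlap both genes. Reads from such stretches may thus be missing from both counts or be counted for the partner, and which was not tested.

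The promoters of the 8 genes, all found in RefSeq (GRCm38.p6) as windows of 300 bases from 250 before to 50 after the start, held 10 (*Lamp2*) to 27 (*Idh3g*) CpG dinucleotides, against a median of 7 over all 32851 promoters and of 7 over the X-linked ones. From 58.6% (*Lamp2*) to 85.8% (*Idh3g*) of all promoters, of genes expressed here or not, held as many CpGs or fewer. The windows of 4 members are shown upstream of the transcript start, since they stand for different responses described below. *Idh3g*, whose RNA changed least in FL and ΔB+C, had the most CpGs, and *Lamp2* had the fewest. A link of the CpG count to the response was not tested. Capitals mark CG in the windows of *Idh3g* (chrX:73786898-73787147, minus strand) and *Lamp2* (chrX:38456461-38456710, minus strand), GGGCGG (the GC box) in that of *Hprt* (chrX:52987828-52988077, plus strand), and CACGTG (the E-box) in that of *Gla* (chrX:134601126-134601255, minus strand).
Idh3g: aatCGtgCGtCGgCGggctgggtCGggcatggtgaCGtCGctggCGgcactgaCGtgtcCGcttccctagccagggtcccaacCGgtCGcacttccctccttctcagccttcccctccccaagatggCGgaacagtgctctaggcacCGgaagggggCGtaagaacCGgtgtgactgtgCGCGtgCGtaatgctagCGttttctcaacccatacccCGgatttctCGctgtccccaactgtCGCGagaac
Lamp2: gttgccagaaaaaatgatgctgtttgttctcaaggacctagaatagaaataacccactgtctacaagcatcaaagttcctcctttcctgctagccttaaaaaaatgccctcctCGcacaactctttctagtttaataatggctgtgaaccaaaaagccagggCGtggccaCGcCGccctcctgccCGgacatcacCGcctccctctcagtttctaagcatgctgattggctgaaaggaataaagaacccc
Hprt: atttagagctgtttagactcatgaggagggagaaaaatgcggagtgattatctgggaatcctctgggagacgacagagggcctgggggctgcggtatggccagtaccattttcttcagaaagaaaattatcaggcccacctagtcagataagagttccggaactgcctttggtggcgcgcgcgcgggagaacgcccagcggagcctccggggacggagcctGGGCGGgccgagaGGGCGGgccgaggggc
Gla: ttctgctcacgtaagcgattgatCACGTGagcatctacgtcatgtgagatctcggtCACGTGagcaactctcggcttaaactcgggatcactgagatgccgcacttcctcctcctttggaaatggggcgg
GGGCGG or its reverse complement was present in 6 of the 8 windows of 300 bases and in 35.7% of all promoters. CACGTG was present in 1 of 8 and in 7.15% of all promoters, and both of the *Gla* sites extend to the palindrome TCACGTGA, which 0.974% of promoters hold. CCAAT, on either strand, was present in 3 of 8 against 37.4%, and TATAAA in 0 of 8 against 13.6%. These letters describe the windows and show no binding.

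Without DOX, levels per kb of merged exon ranked *Hprt* first, with a median of 113 CPM per kb over the 6 noDOX libraries and a range of 104 to 117. *Prps1* followed at 52.9 CPM per kb (51.0 to 54.6), apart from its neighbours in the order. *Pdha1* at 40.6 (38.3 to 43.5), *G6pdx* at 37.2 (35.6 to 40.1) and *Idh3g* at 37.1 CPM per kb (35.2 to 39.8) overlapped each other. *Gla* at 3.55 (2.92 to 4.34), *Lamp2* at 3.32 (2.27 to 4.63) and *Phka2* at 2.27 CPM per kb (2.09 to 2.50) came last. The range of *Lamp2* took in all of that of *Gla* and part of that of *Phka2*.

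Upon DOX addition, the 8 genes kept a median of 59.9% of their noDOX level in FL and 58.4% in ΔB+C, over 16 pairs of gene and replicate in each line, with all 16 pairs lower in both. In ΔA the median was 98.5%, with 9 of 16 pairs lower. The 16 pairs are 8 genes in 2 replicates and not 16 replicates of a line. Of the 464 tested X-linked genes apart from *Xist*, which include the 8, 449 had negative log2 fold changes in FL, 437 in ΔB+C and 349 in ΔA. Of all 13191 tested genes, 6744, 6676 and 6587 did. In edgeR's quasi-likelihood test with Benjamini-Hochberg adjustment over all 13191 genes tested, *Prps1*, *G6pdx*, *Hprt* and *Phka2* were lower with DOX in FL, 4 of 8, where 27.2% of the 464 tested X-linked genes and 1.09% of all tested genes were lower. In ΔB+C, *Prps1*, *G6pdx*, *Gla* and *Hprt* were lower, again 4 of 8, against 34.3% of the X-linked genes and 2.13% of all genes. In ΔA none of the 8 passed, and neither did any X-linked gene (0% lower, as over all genes). At an unadjusted p under 0.05, 1 member (*Phka2*) and 53 X-linked genes were lower in ΔA, while DESeq2 called 0 members and 2 X-linked genes, and limma-voom 0 of each. No member was called higher with DOX in any line.

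Replicates with the same number varied together, and a fit with the replicate number as a block called 7 of 8 members lower in FL (80.6% of X-linked and 8.13% of all genes) and all 8 in ΔB+C (75.6% and 12%). In ΔA the block called 0 of 8 (0.431% and 0.0152%). Both DOX libraries lay below both noDOX libraries for 8 of 8 members in FL (88.1% of X-linked and 25.7% of all tested genes), for 7 of 8 in ΔB+C (82.1% and 23.3%), and for 2 of 8 in ΔA (35.6% and 12.5%). With the block and by overlap, the members' shares in FL and ΔB+C were near those of the X chromosome. The 4 calls in FL fell to 0 without FL noDOX replicate 2 or without FL DOX replicate 2, to 1 without FL noDOX replicate 1, and to 2 without FL DOX replicate 1 or either ΔB+C noDOX library. Those in ΔB+C fell to 2 without either of its noDOX libraries or without the low-input DOX library. A fit to the 4 libraries of 1 line alone called 0 members in each line. The direction of all 8 members stayed the same in FL and ΔB+C under each of the 20 alternative fits.

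**Figure D1:**
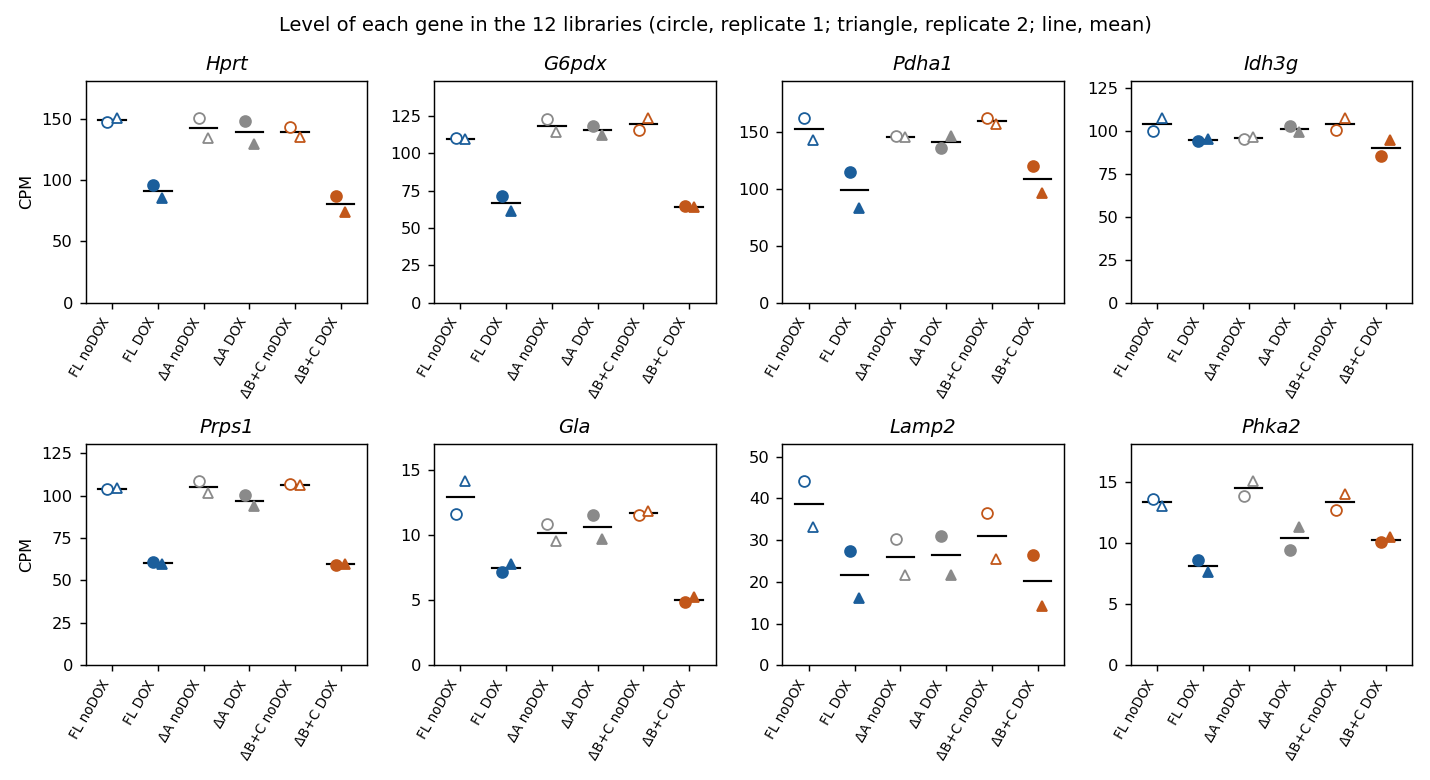
Level of the 8 genes (CPM, linear axes from 0) in each of the 12 libraries, with open symbols for noDOX, filled symbols for DOX, circles for replicate 1, triangles for replicate 2 and a line at the mean of 2. In FL both DOX symbols lie below both noDOX symbols in all 8 panels, and in ΔA in those of *Prps1* and *Phka2*.

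Replicate 2 of *Prps1* lay at -0.099 to 0.012 from replicate 1 on the log2 scale over the 6 groups. *Prps1* was at 104 and 104 CPM in the FL noDOX libraries and at 60.7 and 59.8 CPM with DOX. It was at 107 and 106 CPM in ΔB+C noDOX and at 59.2 and 59.7 CPM with DOX, and at 109 and 102 CPM in ΔA noDOX and 100 and 93.8 CPM with DOX. The DOX libraries of FL and ΔB+C were thus all near 60 CPM, well apart from the other 8. The log2 fold change was -0.79 ± 0.08 (SE) in FL (adjusted p = 0.00299), -0.84 ± 0.08 in ΔB+C (adjusted p = 0.00175) and -0.12 ± 0.07 in ΔA (adjusted p = 1.0). In transcript sequence, 3.48% of the stretches of 100 bases of *Prps1* are also in *Prps1l3*, a copy on chromosome 12, which was at 109 and 114 CPM in FL noDOX and 94.2 and 98.8 CPM with DOX (adjusted p = 0.356).

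*Hprt*, the user of the *Prps1* product, was at 148 and 151 CPM in FL noDOX and at 96.3 and 85.4 CPM with DOX. In ΔB+C it went from 143 and 135 CPM to 87.1 and 74.0 CPM. In ΔA it stayed between 129 and 150 CPM, at 150 and 134 CPM without DOX and 148 and 129 CPM with it. Groups were apart in FL and ΔB+C and overlapped in ΔA. The log2 fold changes were -0.71 ± 0.12 (adjusted p = 0.0247), -0.79 ± 0.12 (adjusted p = 0.0121) and -0.03 ± 0.11 (adjusted p = 1.0) in the same order of lines. No stretch of 100 bases of *Hprt* is shared with another gene.

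*G6pdx* was at 110 CPM in both FL noDOX libraries and at 71.6 and 61.6 CPM with DOX. It was at 115 and 124 CPM in ΔB+C noDOX and at 64.7 and 63.7 CPM with DOX, and at 123 and 114 CPM in ΔA noDOX and 118 and 112 CPM with DOX. The fall was thus seen in both pairs of FL and of ΔB+C, where the DOX libraries kept 51.6% to 65.1% of the level of their noDOX partner. The log2 fold change was -0.72 ± 0.09 in FL (adjusted p = 0.00963), -0.90 ± 0.09 in ΔB+C (adjusted p = 0.00303) and -0.04 ± 0.09 in ΔA (adjusted p = 1.0). Its autosomal retrocopy *G6pd2* had a count of 0 in all 12 libraries. *Ikbkg*, which overlaps it, was at 12.4 to 23.7 CPM.

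*Pdha1* had a wider spread between replicates. It was at 162 and 143 CPM in FL noDOX and at 115 and 83.4 CPM with DOX. It was at 162 and 157 CPM in ΔB+C noDOX and at 120 and 96.7 CPM with DOX, and at 146 and 146 CPM in ΔA noDOX and 136 and 146 CPM with DOX. In both silencing lines the DOX replicate 2 was the lowest of the 4 libraries. The log2 fold changes of -0.63 ± 0.15 in FL (adjusted p = 0.108) and -0.55 ± 0.15 in ΔB+C (adjusted p = 0.0945) missed the threshold and passed it with the replicate block (adjusted p = 0.00606 and 0.00731). Of its stretches of 100 bases, 12% are also in transcripts of *Map3k15*, which was at 9.60 to 31.6 CPM.

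*Idh3g* stood apart with the smallest differences in both silencing lines. It was at 99.9 and 107 CPM in FL noDOX and at 94.1 and 95 CPM with DOX, and at 100 and 107 CPM in ΔB+C noDOX and 85.1 and 94.9 CPM with DOX. In ΔA it was at 95 and 96.5 CPM without DOX and at 103 and 99.4 CPM with DOX. The groups did not overlap in any line, with DOX lower in FL and ΔB+C and higher in ΔA. The log2 fold changes were small, at -0.13 ± 0.08 (adjusted p = 0.546), -0.21 ± 0.08 (adjusted p = 0.224) and 0.08 ± 0.08 (adjusted p = 1.0) in FL, ΔB+C and ΔA, and the block called only that in ΔB+C (adjusted p = 0.0492). The 95% confidence interval of -0.32 to 0.06 in FL does not reach the *Prps1* estimate of -0.79.

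The lysosomal genes had lower levels. *Gla* was at 11.6 and 14.2 CPM in FL noDOX and at 7.13 and 7.76 CPM with DOX, and at 11.5 and 11.8 CPM in ΔB+C noDOX and 4.85 and 5.25 CPM with DOX. In ΔA it was at 10.8 and 9.53 CPM without DOX and at 11.5 and 9.69 CPM with DOX. With 42.1% and 44.3% of the noDOX level left in the 2 pairs of ΔB+C, this was the lowest share of any member in that line. The log2 fold change there was -1.21 ± 0.16 (adjusted p = 0.00756), against -0.79 ± 0.16 in FL, which just missed the threshold (adjusted p = 0.0507, and 0.00481 with the block), and 0.06 ± 0.16 in ΔA (adjusted p = 1.0). *Gla* is the member whose promoter holds the E-boxes shown above, and a link of these sites to the response was not tested.

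*Lamp2* varied most between replicates, and replicate 2 was below replicate 1 in 6 of 6 groups, by 0.41 to 0.89 on the log2 scale. It was at 44.2 and 33.2 CPM in FL noDOX and at 27.3 and 16.1 CPM with DOX, and at 36.5 and 25.5 CPM in ΔB+C noDOX and 26.4 and 14.2 CPM with DOX. In ΔA it was at 30.3 and 21.7 CPM without DOX and at 31.0 and 21.7 CPM with DOX. Within pairs, DOX libraries kept 61.7% and 48.4% of the noDOX level in FL and 72.3% and 55.7% in ΔB+C, but 102% and 100.1% in ΔA. The unpaired log2 fold changes of -0.84 ± 0.37 (adjusted p = 0.365) and -0.61 ± 0.37 (adjusted p = 0.416) did not pass, and those with the replicate block, -0.87 and -0.64, did (adjusted p = 0.000699 and 0.00319). The ΔA value was 0.02 ± 0.36 (adjusted p = 1.0).

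*Phka2* was the only member whose confidence interval left out 0 in ΔA as in the other two lines. It was at 13.7 and 13.1 CPM in FL noDOX and at 8.62 and 7.66 CPM with DOX, at 12.7 and 14.0 CPM in ΔB+C noDOX and 10.1 and 10.5 CPM with DOX, and at 13.9 and 15.1 CPM in ΔA noDOX and 9.47 and 11.3 CPM with DOX. The groups did not overlap in any of the lines. The log2 fold change passed in FL, at -0.72 ± 0.14 (adjusted p = 0.0489), and not in ΔB+C, at -0.38 ± 0.14 (adjusted p = 0.184, and 0.0479 with the block). In ΔA it was -0.48 ± 0.14 (adjusted p = 1.0, and 0.503 with the block), with an unadjusted p of 0.00691. The call in FL was the weakest of the 4 and was made in 7 of the 21 fits run.

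**Figure D2:**
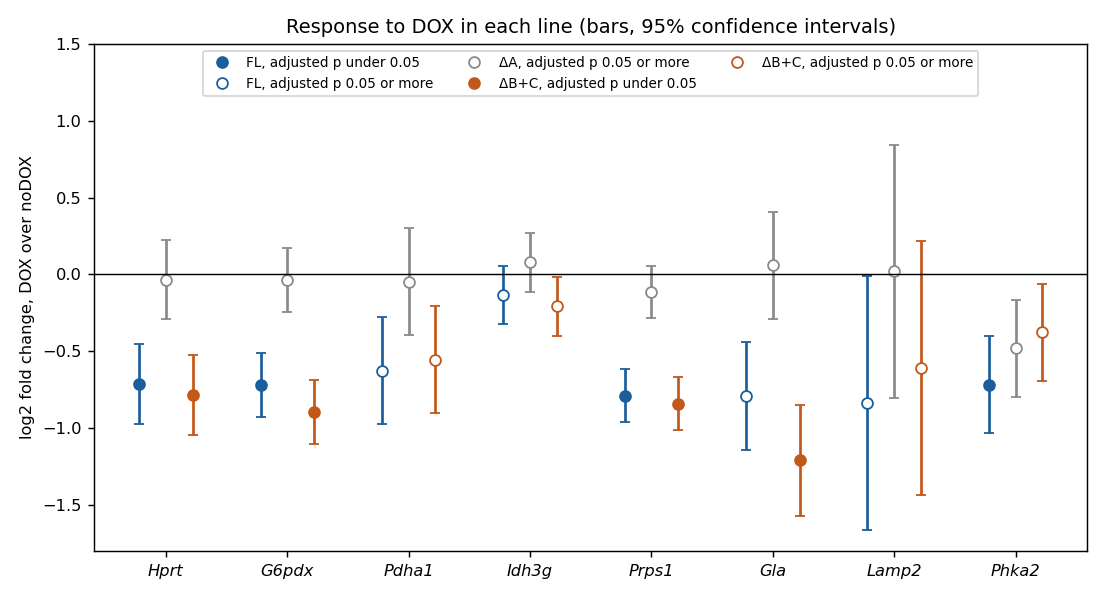
Log2 fold change of DOX over noDOX for the 8 genes in the 3 lines, with 95% confidence intervals from edgeR and filled points where the adjusted p was under 0.05. The FL and ΔB+C points lie between -0.55 and -1.21 except for *Idh3g* and, in ΔB+C, *Phka2* (-0.38), and 7 of the 8 ΔA intervals include 0.

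The members were set beside the tested X-linked genes as a whole. The members' median log2 fold change was -0.72 in FL, -0.70 in ΔB+C and -0.04 in ΔA, where the 464 tested X-linked genes had medians of -0.85, -0.78 and -0.14. The median over all tested genes was -0.01, -0.0030 and 0.00014. In rank from the largest fall among the 464 X-linked genes, the members ran in FL from 237 (*Lamp2*) to 439 (*Idh3g*), all behind the middle of the order. In ΔB+C they ran from 88 (*Gla*) to 418 (*Idh3g*), and in ΔA from 84 (*Phka2*) to 408 (*Idh3g*). *Idh3g* was thus the last of the 8 in every line.

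**Figure D3:**
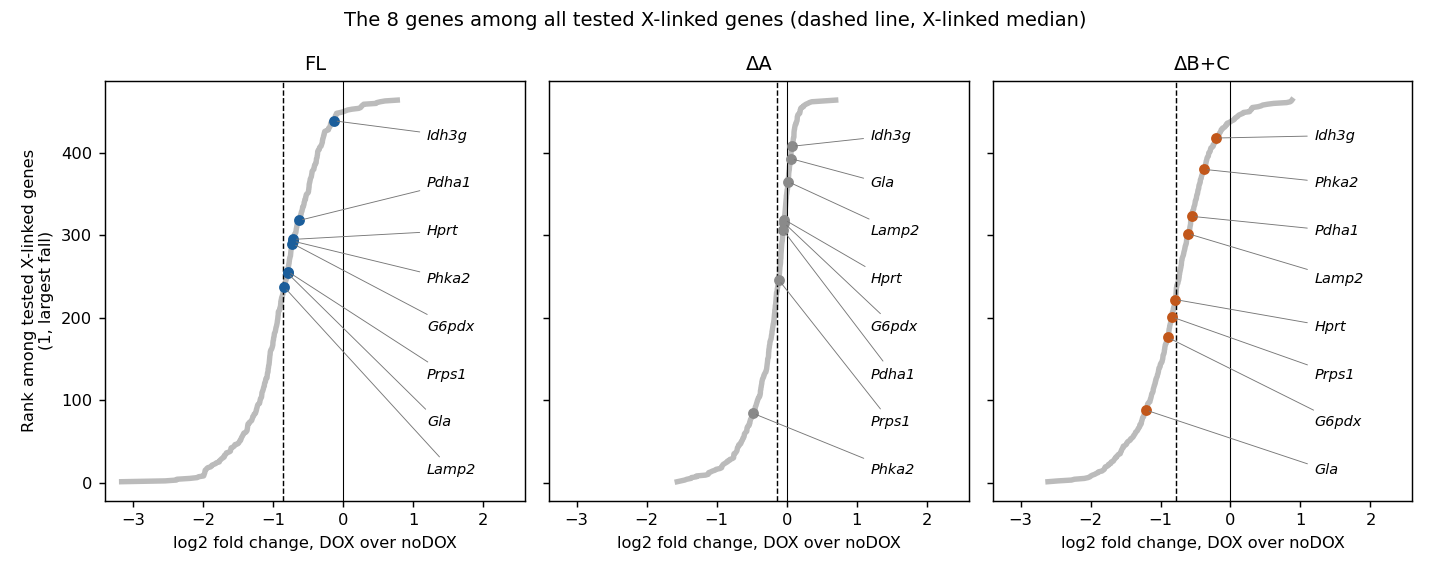
Rank of the log2 fold change of DOX over noDOX among the 464 tested X-linked genes in each line (grey curve, rank 1 for the largest fall), with the 8 genes as points and the X-linked median as a dashed line. All 8 points lie right of the X-linked median in FL (-0.85), and *Idh3g* lies highest of the 8 in each panel.

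The response was then compared between lines as a difference of log2 fold changes. Between ΔB+C and FL no member passed (0% of X-linked and 0% of all tested genes, and 0% of X-linked genes with the block), and 0 members had an unadjusted p under 0.05 or were called by DESeq2 or limma-voom. The paper reports a larger share of cells with an *Xist*-coated X in its ΔB+C DOX samples than in its FL DOX samples. The differences here were not adjusted for that share, so they do not compare silencing per cell with *Xist*. The intervals were narrowest for *Prps1*, -0.05 with a 95% confidence interval of -0.29 to 0.19, *Idh3g*, -0.07 (-0.34 to 0.19), and *G6pdx*, -0.17 (-0.47 to 0.12). *Gla* had the most negative difference, -0.42 (-0.92 to 0.08), and *Phka2* the most positive, 0.34 (-0.10 to 0.78). For *Lamp2* the unpaired difference of 0.23 had a wide interval of -0.94 to 1.40, and with the replicate block it was 0.23 ± 0.16 (adjusted p = 0.999), beside the fall of *Lamp2* called with the block in each of the 2 lines.

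ΔA was set against both silencing lines. The *G6pdx* response was lower in ΔB+C than in ΔA by -0.86 ± 0.13 (adjusted p = 0.0486), and that of *Prps1* by -0.73 ± 0.11 (adjusted p = 0.0413). These were 2 of 8 members, against 3.66% of X-linked genes and 0.205% of all tested genes. *Gla* had the largest difference, -1.27 ± 0.22 (adjusted p = 0.0749), followed after *G6pdx* by *Hprt*, -0.75 ± 0.16 (adjusted p = 0.124). Both calls were lost without any 1 of the 12 libraries, in a fit to the libraries of the 2 lines alone and with scaling to library totals. Between ΔA and FL no member passed (0% of X-linked and 0% of all tested genes), with *Prps1* nearest at 0.67 ± 0.11 (adjusted p = 0.0978). However, 5 members had an unadjusted p under 0.05, as did 216 of the 464 X-linked genes. DESeq2 called 3 of these members (*Hprt*, *G6pdx* and *Prps1*) and 77 X-linked genes, and limma-voom 0 of each.

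With the replicate block, *Hprt*, *G6pdx*, *Prps1*, *Gla* and *Lamp2* responded differently in ΔA than in FL, 5 of 8 against 36.9% of X-linked genes and 3.31% of all tested genes. The same 5 genes differed between ΔB+C and ΔA, against 42.7% of X-linked genes and 9.32% of all. *Phka2* was the member with the smallest difference between ΔB+C and ΔA, 0.10 with a 95% confidence interval of -0.34 to 0.55. Comparisons that share the ΔA libraries are not independent of each other.

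**Figure D4:**
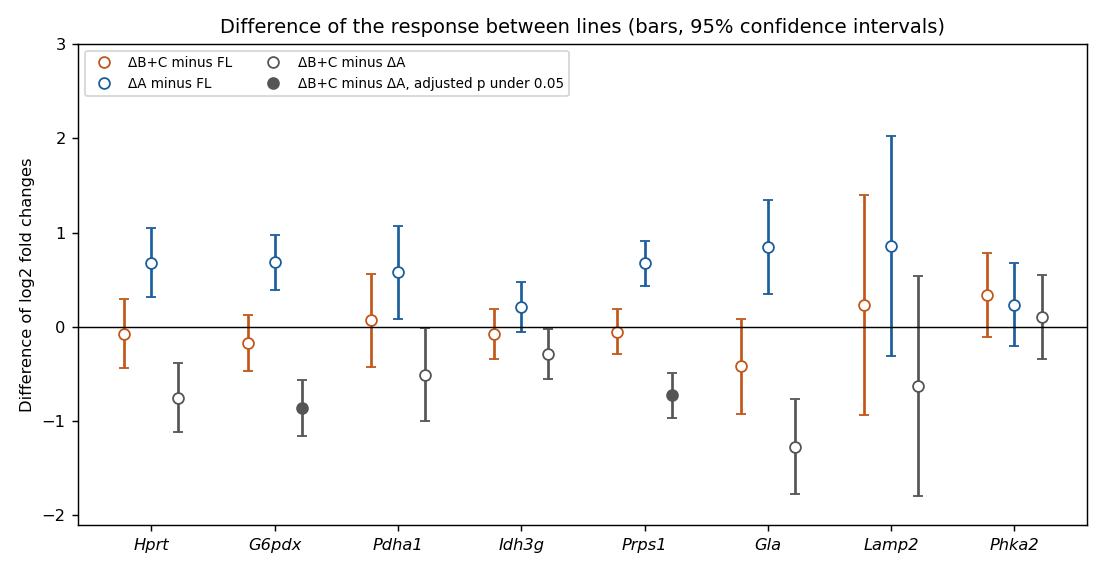
Difference of the log2 fold change of DOX over noDOX between lines, with 95% confidence intervals, for the 8 genes, and filled points where the adjusted p was under 0.05. The ΔB+C minus FL intervals include 0 for all 8 genes, and the filled points are those of *G6pdx* (-0.86) and *Prps1* (-0.73) for ΔB+C minus ΔA.

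The levels of the 8 genes without DOX were compared between lines. None passed for ΔA against FL (9.84% of all tested genes) or for ΔB+C against FL (0.0227%), and none had an unadjusted p under 0.05 or was called by DESeq2 or limma-voom in either. *Lamp2* had the largest differences, -0.57 ± 0.36 in ΔA (adjusted p = 0.358) and -0.32 ± 0.36 in ΔB+C (adjusted p = 1.0). With the replicate block that of ΔA was called (adjusted p = 0.00259), as were 33.4% of all tested genes. *Gla* followed, at -0.34 (95% confidence interval of -0.69 to 0.01) in ΔA and -0.14 (-0.49 to 0.21) in ΔB+C. *Prps1* differed least between ΔA and FL, by 0.02 with a 95% confidence interval of -0.15 to 0.19.

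A list of 57 other X-linked genes of metabolism, transport and mitochondria, 54 of them tested, was set beside the 8. In FL 54 of 54 had negative values, as did 449 of the 464 X-linked genes, and edgeR called 21 lower, where 27.2% of X-linked and 1.09% of all tested genes were lower. In ΔB+C 54 of 54 were negative, against 437 of 464, and 28 were lower, against 34.3% and 2.13%. The medians of -0.78 and -0.80 lay near those of the X chromosome. In ΔA 39 were negative, 0 were called (7 at an unadjusted p under 0.05, and 0 by DESeq2, limma-voom or the block) and the median was -0.11. The smallest p in both silencing lines belonged to *Pdk3*, a kinase that switches off pyruvate dehydrogenase, at 33.4 and 34.6 CPM in FL noDOX and 17.2 and 16.7 CPM with DOX. *Pdk3* fell by 1.00 in FL (adjusted p = 0.00249) and by 1.25 in ΔB+C (adjusted p = 0.000577), more than *Pdha1* in both. *Aifm1*, a mitochondrial flavoprotein, fell by 0.73 and 0.82 (adjusted p = 0.00625 and 0.00244), and *Timm8a1*, a mitochondrial import chaperone, by 0.94 and 1.15 (adjusted p = 0.0111 and 0.00347).

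Both *Prps1* and *Phka2* have X-linked paralogs. *Prps2*, another phosphoribosyl pyrophosphate synthetase, was at 99.0 and 91.5 CPM in FL noDOX and 49.4 and 46.1 CPM with DOX, and fell by 1.00 (adjusted p = 0.0188). In ΔB+C it went from 90.7 and 89.2 CPM to 60.3 and 44.6 CPM and fell by 0.78 (adjusted p = 0.0297). Thus *Prps1* and *Prps2*, the X-linked genes of the enzyme, were both lower with DOX in both lines. *Phka1*, the muscle form of the phosphorylase kinase alpha subunit, had lower values in every line, as *Phka2* did. It was at 12.5 and 10.1 CPM in FL noDOX and 5.80 and 4.98 CPM with DOX, and at 11.6 and 11.9 CPM in ΔA noDOX and 4.87 and 6.43 CPM with DOX. Its log2 fold change was -1.15 ± 0.23 in ΔB+C (adjusted p = 0.0350), -1.07 ± 0.23 in FL (adjusted p = 0.0709, and 0.00408 with the block) and -1.06 ± 0.23 in ΔA (adjusted p = 1.0, and 0.185 with the block).

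Over 6 lists of autosomal partners of the members, 67 of 69 genes were tested, and the median log2 fold change was 0.09 in FL, 0.02 in ΔA and 0.05 in ΔB+C. In edgeR 0 were called in FL, 0 in ΔA and 2, both lower, in ΔB+C. At an unadjusted p under 0.05, 6 were lower and 7 higher in FL and 9 lower and 7 higher in ΔB+C. DESeq2 called 1 lower and 1 higher in FL and 4 lower and 5 higher in ΔB+C, and limma-voom 0 in FL and 3 lower in ΔB+C. With the replicate block 5 were lower and 8 higher in FL, and 9 lower and 8 higher in ΔB+C. Of all tested genes the block called 8.13% lower and 5.72% higher in FL, and 12% and 9.89% in ΔB+C. In ΔA each of these counts was 0 for the partners.

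Of the other 9 genes of the pyruvate dehydrogenase complex and its regulators, edgeR called 0 in each line. *Dld*, the E3 subunit, had -0.30 in FL and -0.39 in ΔB+C and was called with the block in both (adjusted p = 0.0154 and 0.00273), and *Pdk4*, a kinase of the complex, had 1.02 in ΔB+C (adjusted p = 0.0147 with the block). At an unadjusted p under 0.05, 1 was lower in FL, and 1 lower and 1 higher in ΔB+C, as DESeq2 called in ΔB+C, while limma-voom called 0. *Pdhb*, the beta subunit that pairs with the *Pdha1* product, had log2 fold changes of 0.11 ± 0.11, 0.09 ± 0.11 and 0.05 ± 0.11 in FL, ΔA and ΔB+C. Of the 7 tested pentose phosphate genes 0 were called in any line by edgeR with or without the block, DESeq2 or limma-voom, and 0 had an unadjusted p under 0.05. *Pgd*, the other NADPH-yielding enzyme of that branch, had 0.07 ± 0.12, 0.15 ± 0.12 and -0.04 ± 0.12.

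Among the 10 citric acid cycle genes, *Idh3a*, the catalytic subunit of the enzyme to which *Idh3g* belongs, was lower in ΔB+C. With the block *Fh1*, the fumarase, was lower as well, by -0.34 there (adjusted p = 0.00414) and by -0.22 in FL (adjusted p = 0.0420). *Idh3a* went from 141 and 137 CPM to 102 and 96.0 CPM there, a log2 fold change of -0.49 ± 0.07 (adjusted p = 0.0126). In FL it went from 131 and 136 CPM to 116 and 110 CPM, -0.24 ± 0.07 (adjusted p = 0.189, and 0.0294 with the block), and in ΔA it had 0.02 ± 0.07. Its values were below those of the X-linked *Idh3g* subunit, whose own log2 fold changes were -0.21 and -0.13, and the difference between the 2 genes was not tested. *Idh3b*, the third subunit, had -0.01 ± 0.09 in FL and -0.07 ± 0.09 in ΔB+C.

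Of the 14 tested autosomal purine genes, *Atic*, which carries out the last steps of new purine synthesis, was lower in ΔB+C, from 638 and 687 CPM to 484 and 505 CPM (-0.42 ± 0.08, adjusted p = 0.0281). In FL *Atic* had -0.20 ± 0.08 (adjusted p = 0.319), and edgeR called 0 of the 14, with 3 lower and 1 higher at an unadjusted p under 0.05, 1 higher by DESeq2 and 0 by limma-voom. The block called *Gmps*, which makes GMP, lower in FL and ΔB+C, at -0.42 and -0.55 (adjusted p = 0.00655 and 0.00104), and *Pfas*, an enzyme of new purine synthesis, higher in both, at 0.27 and 0.29 (adjusted p = 0.0207 and 0.0110). It called *Impdh2* higher in FL, and *Atic*, *Aprt*, *Ppat* and *Prps1l3* lower in ΔB+C. *Aprt*, which salvages adenine as *Hprt* does hypoxanthine and guanine, had -0.03 ± 0.11 in FL and -0.33 ± 0.11 in ΔB+C (adjusted p = 0.156, and 0.0184 with the block). *Prpsap1*, a partner protein of the synthetase, had 0.05 ± 0.17 and 0.12 ± 0.17. Of the 10 glycogen genes edgeR, DESeq2 and limma-voom called 0 in each line, with 1 lower at an unadjusted p under 0.05 in FL and 1 in ΔB+C. With the block *Gyg*, which primes glycogen, was lower in FL (-0.44, adjusted p = 0.0264), and *Gbe1*, the branching enzyme, in ΔB+C (-0.50, adjusted p = 0.0292). *Phkb*, the beta subunit that binds the *Phka2* product, had -0.08 ± 0.11 in FL and -0.0011 ± 0.11 in ΔB+C. Of the 17 lysosomal genes edgeR called 0 in each line, while the block called 6 higher in FL and 6 in ΔB+C, DESeq2 0 and 3, and limma-voom 0 and 0. *Lamp1*, the autosomal relative of *Lamp2*, stayed between 259 and 344 CPM in all libraries, with 0.03 ± 0.08 and 0.06 ± 0.08.

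The gene whose log2 CPM was most like that of each member over the 12 libraries was X-linked for *Hprt* (*Ercc6l*, Pearson's r = 0.996), *Prps1* (*Armcx6*, 0.992), *G6pdx* (*Ubqln2*, 0.986) and *Pdha1* (*Kif4*, 0.968). It was autosomal for *Lamp2* (*Cfl2*, 0.977), *Gla* (*Rp9*, 0.966), *Phka2* (*Tbc1d2b*, 0.943) and *Idh3g* (*Ddx18*, 0.933). Among the members themselves, *Prps1* and *G6pdx* were the pair most alike (r = 0.985), and *Idh3g* and *Lamp2* the least (r = 0.321). These values describe 12 libraries that share lines, DOX and replicate numbers.

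Marker lists of cell state were followed in the same libraries. Over the 5 pluripotency markers the median response (log2) was 0.64 in FL, 0.11 in ΔA and 0.65 in ΔB+C, and their summed level was 1871 to 2775 CPM without DOX and 1916 to 2959 CPM with it. EdgeR called 0 of them in each line, but with the replicate block *Sox2* was higher in FL (0.64, adjusted p = 0.00504) and ΔB+C (0.64, adjusted p = 0.00345), and *Zfp42* in ΔB+C (1.09, adjusted p = 0.0478). In these 2 lines 3 of the 5 had positive log2 fold changes. *Nanog* (-0.41 in FL and -0.11 in ΔB+C) and *Pou5f1* (-0.0058 and -0.20) had negative ones and were not called. Of 4 early differentiation markers, *Fgf5* was lower in ΔB+C in edgeR (-1.48 ± 0.32, adjusted p = 0.0434), and the block also called *Otx2* lower there (-0.33, adjusted p = 0.00946) and *Pou3f1* higher in FL (0.36, adjusted p = 0.0322). Their sum was 1460 to 2129 CPM without and 1095 to 2074 CPM with DOX. Primitive endoderm markers summed to 20.8 to 39.1 CPM and 20.4 to 54.1 CPM, and fibroblast markers to 12.3 to 53.1 CPM and 10.1 to 51.3 CPM, with *Lum* at or near 0 in all libraries. EdgeR called 0 in either list, and the block called *Dab2*, of primitive endoderm, higher in ΔB+C (0.51, adjusted p = 0.0329). Over the 17 markers tested, an unadjusted p under 0.05 was reached by 2 in FL, 0 in ΔA and 5 in ΔB+C, the block called 2, 0 and 5, DESeq2 1, 0 and 1, and limma-voom 0 in each line. Among all tested genes the block called 8.13% lower and 5.72% higher in FL, and 12% lower and 9.89% higher in ΔB+C. The part of cell state in the responses of the members was not tested.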

How the data were processed

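RNA was extracted at day 2 from 3 lines, each noDOX and DOX, in 2 replicates that the study's text calls biological duplicates. The authors aligned read pairs to mm10 with TopHat2 2.1.0, keeping 1 alignment per read, used the refFlat annotation, and deposited raw exon counts per gene from featureCounts 1.5.1, without normalization or pooling. Samples were grouped by their labels. No pair of libraries was identical, no row lacked a gene name, and the whole number counts of each library summed to between 31337490 and 41240470.

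Genes reaching 1 CPM in 6 or more libraries were tested with edgeR 4.0.16 in R 4.3.3 (robust quasi-likelihood, 6 group means, 6 residual degrees of freedom), with TMM factors from autosomal genes (0.978 to 1.02) and Benjamini-Hochberg adjusted p-values at a threshold of 0.05. CPM values are TMM-scaled. The standard error is the log2 fold change divided by the root of F, and intervals are at 95%. In libraries simulated after the FL comparison, with 13200 genes, edgeR recovered 65% of the genes changed by 1 on the log2 scale and 96% of those changed by 2, and 4.73% of its calls were false. Of the DESeq2 calls 15.7% were false, and of the limma-voom calls 4.76%. The simulated replicates were independent of each other, and no change smaller than 1 was set. Differences between replicates 2 and 1 over 12721 autosomal genes correlated between all 15 pairs of groups (r = 0.388 to 0.768), so the replicate numbers in the labels were taken as pairs in a second fit. Other fits used DESeq2 1.42.0, limma-voom (limma 3.58.1), TMM factors from all tested genes, library totals, no filter, a 5 CPM filter, only the compared lines' libraries, and each library left out in turn.

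The 8 genes, the 7 lists of other genes and the marker lists were chosen with earlier results of these data known, and are described by counts and medians without a set test. Besides the 8 genes and *Xist*, the rule named up to 3 genes per list and line with the smallest p past the threshold, a fixed set of partners, and for each member the gene most like it over the log2 CPM (prior count 0.5). *Map3k15*, *Ikbkg* and *Prps1l3* were added after their values were seen, because they share exons or sequence with members, and so was *Fgf5*. Shared sequence was counted as stretches of 100 bases in GENCODE vM21 transcripts. Plots were made in Python 3.11.15 (matplotlib 3.10.9). The other data of the paper were not used here, and the result of 1 gene of the lysosome list is not reported here by name.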

Additional observations from a re-analysis of the deposited data

Results flagged for a closer look

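The response to DOX of *G6pdx* and *Prps1* differed between the ΔB+C and ΔA lines in a test of the difference itself (edgeR interaction). For *G6pdx* the log2 fold change was -0.90 in ΔB+C and -0.04 in ΔA, a difference of -0.86 ± 0.13 (adjusted p = 0.0486), with both pairs of ΔB+C lower. For *Prps1* it was -0.84 and -0.12, a difference of -0.73 ± 0.11 (adjusted p = 0.0413), again with both pairs of ΔB+C lower. Over all fits run, the adjusted p ranged from 2.1e-06 to 0.240 for *G6pdx* and from 5.7e-08 to 0.239 for *Prps1*. With 2 libraries per group, no single library could be tested for standing apart from its group.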

How the results depend on the processing

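The direction of all 8 members in FL and ΔB+C held in every fit, while counts of calls moved with how the spread was estimated. With the replicate block, which uses the pairing, members called lower rose to 7 in FL and 8 in ΔB+C and X-linked genes to 374 and 351 (2 in ΔA), members with a different response to 5 for ΔA against FL and 5 for ΔB+C against ΔA, and members different without DOX between ΔA and FL to 1. The block changed no call between ΔB+C and FL. DESeq2 called 253, 2 and 241 X-linked genes in FL, ΔA and ΔB+C. In those comparisons of ΔA it called 3 and 4 members, and 77 and 106 of the 464 X-linked genes. With only the libraries of the lines compared, 0 members and 0 X-linked genes were called in FL and ΔB+C and 0 members between ΔB+C and ΔA. For the latter, library totals gave 0 and no filter 1. Leaving out 1 library at a time gave 0 to 3 members and 3 to 157 X-linked genes in FL (3 without FL DOX replicate 2), 2 to 4 and 35 to 142 in ΔB+C (35 without its DOX replicate 2), and 0 members between ΔB+C and ΔA; a lone library was then assumed to vary like the other groups. The cause of these shifts was not tested.

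Log2 values near 0 changed sign. With library totals *Lamp2* in ΔA was -0.019, and *Idh3g* without DOX in ΔB+C against FL was -0.0043, and -0.0075 with TMM factors from all tested genes. Without 1 library, the ΔA responses ranged from -0.14 to 0.061 for *Hprt*, -0.089 to 0.015 for *G6pdx*, -0.10 to 0.0018 for *Pdha1*, -0.073 to 0.18 for *Gla* and -0.26 to 0.28 for *Lamp2*. The ΔB+C minus FL differences ranged from -0.20 to 0.039 for *Hprt*, -0.14 to 0.32 for *Pdha1*, -0.16 to 0.0020 for *Idh3g* and -0.29 to 0.66 for *Lamp2*, and ΔB+C minus ΔA from -0.021 to 0.24 for *Phka2*. Without DOX, ΔA minus FL ranged from -0.15 to 0.013 for *Hprt*, -0.15 to 0.027 for *Pdha1* and -0.034 to 0.065 for *Prps1*, and ΔB+C minus FL from -0.025 to 0.15 for *Pdha1*, -0.057 to 0.058 for *Idh3g*, -0.29 to 0.0064 for *Gla* and -0.084 to 0.070 for *Phka2*. *Gla* and *Phka2* were the least deeply counted, at 15.2 CPM or less in every library. Their SEs in FL, 0.16 and 0.14, were near the 0.15 of the deeper *Pdha1*, and that of *Lamp2* was wider, at 0.37.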

Other observations

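The 17 autosomal genes of lysosomal enzymes and membrane proteins were measured beside *Gla* and *Lamp2*. Their log2 fold change was positive for 16 in FL (median 0.22) and for 17 in ΔB+C (median 0.21), but for 4 in ΔA (median -0.05), and 0 passed the adjusted threshold in edgeR. At an unadjusted p under 0.05, 6 were higher in FL and 5 in ΔB+C, DESeq2 called 0 and 3, and limma-voom 0 in both. With the replicate block, 6 were higher in FL and 6 in ΔB+C, where it called 5.72% and 9.89% of all tested genes higher. *Glb1*, a lysosomal galactosidase, had 0.63 and 0.55 (adjusted p = 0.0142 and 0.0171), *Gaa*, which degrades lysosomal glycogen, 0.53 and 0.46 (adjusted p = 0.0082 and 0.0108), and *Psap*, the source of the saposins, 0.31 and 0.45 (adjusted p = 0.0209 and 0.00216). *Scarb2* and *Ctsa* were higher in both lines as well, and *Galc* in FL. These genes were named after their values were seen.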
